A study of Mus musculus with 20 samples.

Results

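Genes of glutathione use and antioxidant defence, 10 in all, were described in mouse eWAT, the white fat of the epididymal pad: the transferases Gsta3, Gsta4, Gstm1 and Gstm2, the peroxidases Gpx3 and Gpx4, the synthesis enzymes Gclc and Gss, the quinone reductase Nqo1 and the mitochondrial superoxide dismutase Sod2. They were chosen by symbol, with earlier results of these data known, and are 10 of the 55401 genes in the deposited count table. PolyA RNA had been sequenced in 20 libraries. Of these, 10 came from mice under Random Food Restriction, which joins intermittent fasting with a 5% cut in calories, and 10 from mice on the Control diet. The series asks how food insecurity bears on fat mass, and the design sets the transcripts of the 2 diets side by side. Strain, age and sex are not given in the labels used here, nor is it said whether each library came from a separate animal, so p-values measure the spread between these libraries, which may be technical in part.

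The labels also mark libraries for spermatozyte contamination (the labels' spelling): Yes for 3 Restricted and 7 Control libraries, No for 7 Restricted and 3 Control libraries. Libraries held 14306528 to 44061508 counts, and the RNA integrity number was 7.18 ± 0.399 in Restricted (SD, n = 8) and 7.41 ± 0.267 in Control libraries (SD, n = 9). Adipocyte markers summed to 36200 to 48800 CPM (counts per 1000000 counts of the library) in Restricted and 39000 to 50100 CPM in Control libraries; 2 of these 9 markers were called higher and none was at 0 throughout. Skeletal muscle transcripts stood apart in 6 libraries, Restricted 1 and Control 1 to 5, with a mean log2 level of 11 muscle markers of 5.17 to 7.25, against −1.07 to 1.78 in the other 14. The extraction text names QUAD where the tissue label says eWAT. Restricted 1 was the highest or lowest Restricted library for 7 of the 10 genes. For genes whose log2 fold change by diet is given, it is said where leaving it out changed the call or moved that value by over 1.5 times.

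Glutathione is a tripeptide that cells keep mostly in its reduced form. Glutamate-cysteine ligase, whose catalytic subunit is Gclc, and glutathione synthetase, Gss, build it; transferases attach it to reactive lipids and foreign compounds; peroxidases spend it on peroxides. Fat cells hold large stores of lipid, whose peroxidation yields aldehydes such as 4-hydroxynonenal, the favoured substrate of the alpha-class transferase Gsta4, and lipid hydroperoxides, which the selenoprotein Gpx4 reduces within membranes. The transcription factor NRF2 (Nfe2l2) acts on many of these genes through the antioxidant response element, a short DNA motif, and Nqo1 is its usual reporter gene.

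RefSeq promoter windows on GRCm38.p6, from 250 bases before to 50 after a transcript start, were at hand for 8 of the 10 genes, as 12 windows in all. The core of the antioxidant response element, TGACNNNGC (GCNNNGTCA on the other strand), was searched on both strands and occurred in 4071 of 32851 windows of the same length (12.39%) and in a window of 1 of the 8 genes, Gsta3. A TATA motif, TATAAA on either strand, was added after the data were seen. It occurred in 4473 windows (13.62%) and in 2 of the 12, those of Gstm1 and Nqo1. A match is only a match of letters, and the motifs shown do not overlap each other. Sequence farther than 250 bases before the start was not searched, so a window without a match does not show that the gene lacks the element. Windows are shown for Gsta3, which holds the element's core, for Gstm1 and Gpx4, which were called higher, and for Nqo1, which had the lowest fold change. They read 5′ to 3′ on the strand of the gene, with motif matches in capitals.
Gsta3 (chr1:21240335-21240634, plus strand): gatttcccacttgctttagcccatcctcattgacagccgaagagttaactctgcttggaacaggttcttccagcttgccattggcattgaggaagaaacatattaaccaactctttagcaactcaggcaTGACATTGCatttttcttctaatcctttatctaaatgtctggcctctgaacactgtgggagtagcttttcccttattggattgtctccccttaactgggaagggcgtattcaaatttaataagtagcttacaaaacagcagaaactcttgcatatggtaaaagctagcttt
Gstm1 (chr3:108017769-108018068, minus strand, 1 of 2 windows): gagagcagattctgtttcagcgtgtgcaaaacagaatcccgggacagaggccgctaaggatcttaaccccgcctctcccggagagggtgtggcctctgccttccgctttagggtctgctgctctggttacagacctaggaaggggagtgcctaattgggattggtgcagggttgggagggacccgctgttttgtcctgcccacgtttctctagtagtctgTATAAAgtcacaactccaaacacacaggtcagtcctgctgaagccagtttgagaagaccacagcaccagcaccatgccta
Gpx4 (chr10:80053315-80053614, plus strand, 1 of 4 windows): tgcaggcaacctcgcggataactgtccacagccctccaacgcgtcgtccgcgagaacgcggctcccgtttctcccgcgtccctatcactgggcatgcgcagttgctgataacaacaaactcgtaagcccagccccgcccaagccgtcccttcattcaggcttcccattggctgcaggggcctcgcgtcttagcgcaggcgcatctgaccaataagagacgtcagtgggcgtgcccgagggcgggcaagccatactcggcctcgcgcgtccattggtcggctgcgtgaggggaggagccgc
Nqo1 (chr8:107403156-107403455, minus strand): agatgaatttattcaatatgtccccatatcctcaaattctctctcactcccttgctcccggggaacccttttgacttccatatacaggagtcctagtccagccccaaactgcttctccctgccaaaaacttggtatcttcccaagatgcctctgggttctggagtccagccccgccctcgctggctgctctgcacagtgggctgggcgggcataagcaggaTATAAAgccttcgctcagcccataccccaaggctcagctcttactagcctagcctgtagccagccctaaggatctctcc
The core in Gsta3, TGACATTGC, begins 121 bases before the start (−121). The TATAAA of Gstm1 begins at −30 and that of Nqo1 at −29, while the Gpx4 windows held neither motif.

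Of the 10 genes, 3 were higher in Restricted libraries, Gsta4, Gstm1 and Gpx4, and none was called lower. By the quasi-likelihood test of edgeR, with a term for the contamination label and Benjamini-Hochberg adjustment at 0.05, 13.6% of all 15986 tested genes were called by diet, 6.31% higher and 7.29% lower. All 10 genes passed the filter on low counts, and their median log2 fold change was 0.143, against 0.00881 over all tested genes. Since the 10 were chosen with earlier results of these data known, this difference is a description and cannot show a shift of the set. The changes were small: the called genes were 1.18-fold to 1.33-fold higher, and 7 were not called. The contamination label called none of the 10 (5.3% of all genes, 5.04% higher and 0.269% lower in libraries marked Yes), with adjusted p-values from 0.534 for Gsta4 to 0.938 for Gclc. The diet effect was not found to differ between libraries marked Yes and No for any of them: the interaction had adjusted p-values of 0.859 to 0.987, and 0 genes of the whole table were called by edgeR (871 at an unadjusted p under 0.05; DESeq2 called 1).

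**Figure D1:**
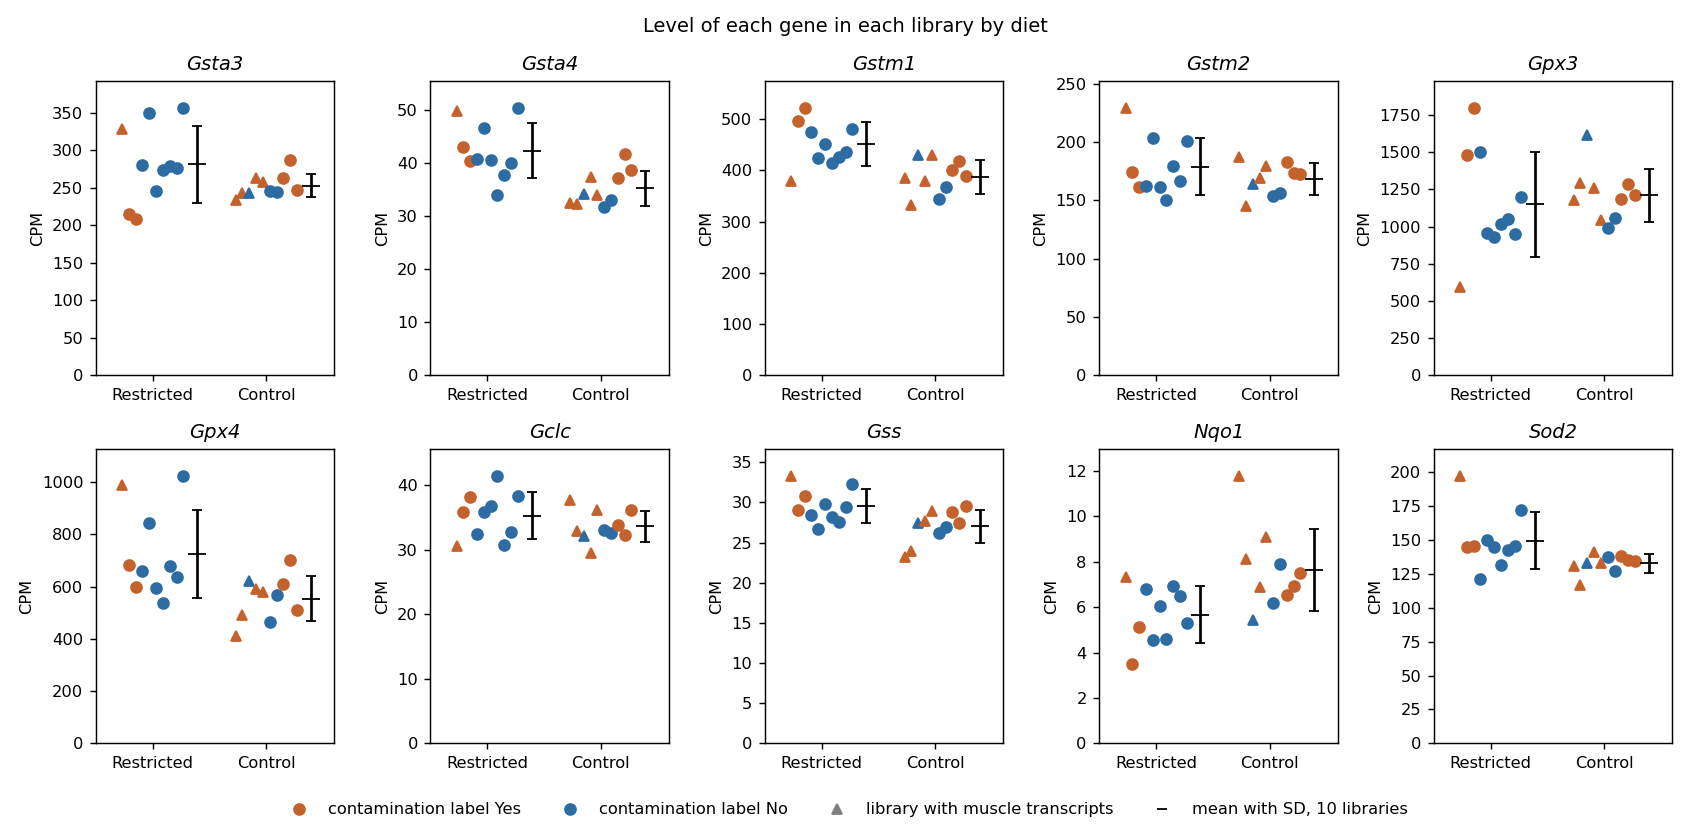
Level of each of the 10 genes in every library, in CPM (linear axis from 0), Restricted left of Control. Points are libraries, coloured by contamination label, triangles mark the 6 libraries with muscle transcripts, and bars are the mean with SD over 10 libraries; for Gsta4, Gstm1 and Gpx4, 4 of 10 Control libraries lie below every Restricted library.

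Levels were set beside each other per length, as TPM (counts divided by the deposited exon length, scaled to a sum of 1000000 in each library, with no TMM factor). Gpx3, the secreted peroxidase of blood plasma, had the highest TPM, 1980 ± 646 in Restricted and 2220 ± 314 in Control libraries (SD, n = 10 each). Gpx4 followed with 1300 ± 231 TPM in Restricted and 1060 ± 133 in Control, and Gstm1 with 954 ± 112 and 871 ± 65.8 TPM in Restricted and Control libraries. Gpx3 exceeded Gpx4 in 19 of 20 libraries, Restricted 1 being the exception, and Gpx4 exceeded Gstm1 in 18, all but Restricted 3 and Control 1. Below them the order was Gstm2, Gsta3, Gsta4, Sod2 and Gclc, and it was the same in all 20 libraries. This order rests on the deposited exon length, a fixed divisor that may differ from the length of the transcripts present. That length was 10008 bases for Sod2 and 1266 for Gsta4, and 4344 for Gsta3 and 1679 for Gstm2. By mean CPM, Sod2 exceeded Gsta4 and Gsta3 exceeded Gstm2 in both diets. Mean TPM over all libraries spanned 332 for Gstm2, 196 for Gsta3, 98.0 for Gsta4, 45.2 for Sod2 and 29.5 for Gclc. Gss (mean 15.3 TPM) and Nqo1 (mean 13.9 TPM) closed the order, Gss above Nqo1 in 16 of 20 libraries, the exceptions being Control 1, 2, 5 and 7.

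Among the transferases, Gsta4 (chr9:78182774-78209349 on GRCm38, plus strand), which conjugates 4-hydroxynonenal, had the smallest adjusted p of the 10 in the fit of all 20 libraries. Its CPM ran from 34.0 to 50.4 with a median of 40.7 in Restricted libraries, and from 31.8 to 41.8 with a median of 34.1 in Control libraries. In Restricted libraries 9 of 10 lay above the Control median and 4 above every Control library (1, 2, 5 and 10), so the groups overlapped. Its log2 fold change was 0.31 (SE 0.0716, adjusted p = 0.00653, edgeR), and the call was kept when any 1 of the 20 libraries was left out, with adjusted p-values of 0.00278 to 0.0243. The log2 fold change was 0.30 among the 10 libraries marked Yes (adjusted p = 0.136) and 0.33 among the 10 marked No (adjusted p = 0.122). Neither subset called any of the 10 genes, at 1.4% of all genes called among libraries marked Yes and 2.41% among those marked No.

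Gstm1 (chr3:108012255-108017973, minus strand), an abundant mu-class transferase, had 380 to 522 CPM with a median of 443 in Restricted and 332 to 429 CPM with a median of 387 in Control libraries. Of the Restricted libraries 6 lay above every Control library, and the lowest Restricted value was that of Restricted 1, the library with muscle transcripts. Its log2 fold change was 0.24 (SE 0.0662, adjusted p = 0.0192, edgeR). Without Restricted 3, the highest library, the call was lost (0.20, adjusted p = 0.0646), as it was without Control 6 (0.21, adjusted p = 0.0594); without Restricted 1 the log2 fold change was 0.29 (adjusted p = 0.00421). Once the 6 muscle-bearing libraries were left out, Gstm1 was the only one of the 10 called (0.33, adjusted p = 0.00541; 5.59% of all genes were called there).

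The neighbouring Gstm2 (chr3:107981702-107986453, minus strand), of the same class, was not called: 150 to 229 CPM with a median of 170 in Restricted and 146 to 187 CPM with a median of 171 in Control libraries. Its log2 fold change was 0.14 (SE 0.0726, adjusted p = 0.229, edgeR), and the medians of the 2 diets were nearly equal. The fold change was smaller without Restricted 1, with 0.07 (adjusted p = 0.591), and without the 6 muscle-bearing libraries, with 0.07 (adjusted p = 0.698). Gsta3 (chr1:21240589-21265661, plus strand), another alpha-class transferase, ranged more widely in Restricted libraries, with 209 to 356 CPM and a median of 277, against 234 to 287 CPM and a median of 246 in Control libraries. Restricted 1, 5 and 10 stood above every Control library for Gsta3, while Restricted 2 and 3 lay below every one. The log2 fold change of Gsta3 was 0.12 (SE 0.0932, adjusted p = 0.439, edgeR), with −0.02 in libraries marked Yes and 0.27 in those marked No (interaction adjusted p = 0.859). It was 0.04 (adjusted p = 0.837) without Restricted 1 and 0.0044 (adjusted p = 0.989) without the 6 muscle-bearing libraries. Mu-class genes resemble each other in sequence, and how the counting shared reads among such copies is not given in the sources used here; the pseudogene Gstm2-ps1 had 0.807% as many counts as Gstm2.

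Of the peroxidases, Gpx4 (chr10:80047166-80056439, plus strand), which reduces lipid hydroperoxides in membranes, had the largest fold change of the 10 in the fit of all 20 libraries. It had 537 to 1024 CPM with a median of 670 in Restricted and 411 to 700 CPM with a median of 572 in Control libraries. Restricted 10 (1024 CPM), 1 (989 CPM) and 5 (843 CPM) exceeded every Control library, and the other 7 Restricted libraries lay within 537 to 681 CPM, inside the Control range. The log2 fold change was 0.41 (SE 0.128, adjusted p = 0.0376, edgeR). This call hung on single libraries: it was lost when any 1 of 7 was left out (Restricted 1 or 5, or Control 1, 2, 6, 7 or 10), with 0.30 and adjusted p = 0.139 without Restricted 1. It was also lost with limma-voom and quality weights (0.30, adjusted p = 0.0659), with no filter on low counts (0.41, adjusted p = 0.0614), and with a term for replicates 1 to 5 against 6 to 10 (0.41, adjusted p = 0.0524). Among the 14 libraries without muscle transcripts it was 0.30 (adjusted p = 0.29), below the 0.33 of Gstm1. The pseudogene Gpx4-ps2 had 2.742% as many counts as Gpx4 and a log2 fold change of 0.28 (adjusted p = 0.369), or 0.15 (adjusted p = 0.676) without Restricted 1.

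Gpx3 (chr11:54902453-54909576, plus strand) gave no call and no stable sign. It had 594 to 1798 CPM with a median of 1036 in Restricted and 988 to 1618 CPM with a median of 1197 in Control libraries. Restricted libraries held both the highest value (Restricted 3) and the lowest (Restricted 1), and 4 of them lay below every Control library. The log2 fold change of −0.03 (SE 0.154, adjusted p = 0.916, edgeR) became 0.10 without Restricted 1, 0.09 without Control 3 and 0.23 without the 6 muscle-bearing libraries (adjusted p = 0.667, 0.749 and 0.267).

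Neither synthesis gene was called. Gclc (chr9:77754535-77794485, plus strand), the rate-limiting enzyme's catalytic subunit, had 30.6 to 41.5 CPM with a median of 35.9 in Restricted and 29.5 to 37.7 CPM with a median of 33.0 in Control libraries (log2 fold change 0.08, SE 0.0642, adjusted p = 0.458, edgeR; 0.12, adjusted p = 0.242, without Restricted 1). Gss (chr2:155563181-155592810, minus strand), the second enzyme, had 26.6 to 33.3 CPM with a median of 29.2 in Restricted and 23.2 to 29.6 CPM with a median of 27.4 in Control libraries. Its log2 fold change was 0.15 (SE 0.0551, adjusted p = 0.0724, edgeR), with 9 of 10 Restricted libraries above the Control median. Gss shares 395 of its 5915 exonic bases with Acss2, an acetyl-CoA synthetase gene on the opposite strand with 140757 counts over all libraries against 13963 for Gss. Since the strand setting of the counting is not given in the sources used here, reads of both genes cannot be told apart there. Acss2 had a log2 fold change of 0.82 (SE 0.360, adjusted p = 0.137, edgeR), which rested on Restricted 1: without that library it was −0.02 (adjusted p = 0.983), and without the 6 muscle-bearing libraries −0.20 (adjusted p = 0.822).

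Nqo1 (chr8:107388225-107403206, minus strand), which reduces quinones with electrons from NADH or NADPH, had the most negative fold change of the 10 and did not pass the test. It had 3.49 to 7.33 CPM with a median of 5.67 in Restricted and 5.45 to 11.8 CPM with a median of 7.21 in Control libraries. In Restricted libraries 5 of 10 lay below every Control library, and in Control libraries 5 of 10 lay above every Restricted one, with Control 1 highest. The log2 fold change was −0.39 (SE 0.159, adjusted p = 0.108, edgeR), −0.61 in libraries marked Yes and −0.16 in those marked No (interaction adjusted p = 0.859). Without the term for the contamination label it was called lower (−0.43, adjusted p = 0.0392). At 74 counts in the thinnest library it was the least deeply counted of the 10.

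Sod2 (chr17:13006846-13040063, plus strand), which turns superoxide into hydrogen peroxide in mitochondria, fell on either side of the threshold, depending on the fit. It had 121 to 198 CPM with a median of 145 in Restricted and 117 to 141 CPM with a median of 134 in Control libraries, and 8 of 10 Restricted libraries lay above every Control library. The 2 exceptions were Restricted 4 (121 CPM) and Restricted 7 (132 CPM). The log2 fold change was 0.21 (SE 0.0693, adjusted p = 0.0521, edgeR); it passed the test without Restricted 2, 4 or 7 and was 0.12 (adjusted p = 0.192) without Restricted 1, whose 198 CPM was the highest. It was also called higher by DESeq2 (0.22, adjusted p = 0.0314), with RLE factors (0.22, adjusted p = 0.0484), with upper-quartile factors (0.20, adjusted p = 0.0477), with a filter of 1 CPM in 10 libraries (0.20, adjusted p = 0.0491) and with the muscle index as a term (0.22, adjusted p = 0.0354). Sod2 was not called without the 6 muscle-bearing libraries (0.11, adjusted p = 0.419) or with library totals in place of TMM factors (0.11, adjusted p = 0.165). Among libraries marked No it was at 0.12 (adjusted p = 0.537), and among those marked Yes at 0.30 (adjusted p = 0.164).

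**Figure D2:**
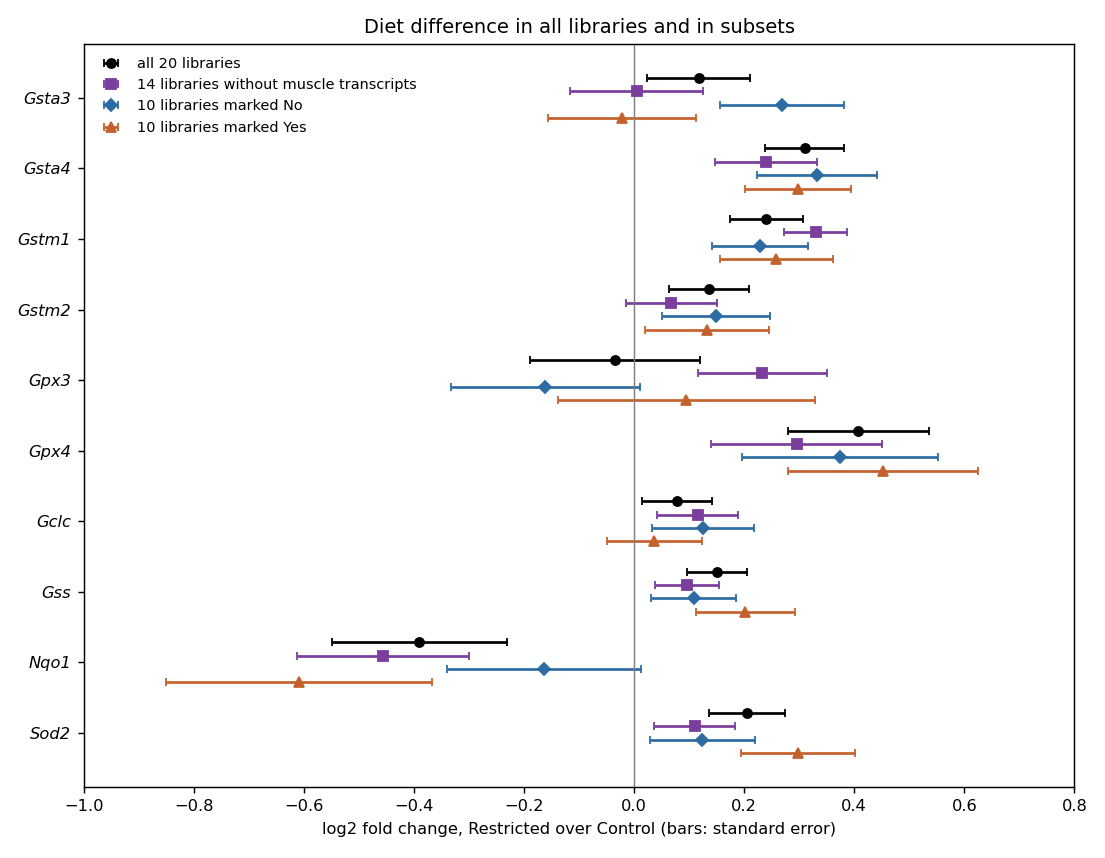
Log2 fold change by diet, Restricted over Control, for each of the 10 genes (horizontal axis), with bars of 1 standard error, for all 20 libraries, the 14 without muscle transcripts, the 10 marked No and the 10 marked Yes. Gsta4, Gstm1 and Gpx4 lie right of 0 in all 4 sets, as do Gstm2, Gclc, Gss and Sod2, which were not called. Nqo1 lies left of 0 in all 4, and Gpx3 and Gsta3 change side.

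The scale of the counts bore on these calls. TMM factors, which align the bulk of genes between libraries, averaged 0.968 in Restricted and 1.03 in Control libraries. With plain library totals in their place, an alternative added after the data were seen, 2383 genes were called (14.9%), 411 higher and 1972 lower, against 1008 higher and 1165 lower with TMM, and the median log2 fold change of all genes was −0.08. On that scale Gsta4 (0.22, adjusted p = 0.0101) and Gpx4 (0.30, adjusted p = 0.0469) stayed higher, Gstm1 was not called (0.16, adjusted p = 0.157), Nqo1 was called lower (−0.49, adjusted p = 0.0456), and Gclc turned to −0.01 (adjusted p = 0.972).

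RNA quality and the markers of other cell types stood beside these calls as follows. The RNA integrity number was recorded for 17 libraries; in these, Gsta4 and Gpx4 were called without it (8.93% of all genes) and none of the 10 with it in the model (2.42% of all genes), where the log2 fold change of Gsta4 was 0.28 (adjusted p = 0.0698) and that of Gpx4 0.42 (adjusted p = 0.132). Beside the marker counts, those of adipocytes included, stand the shares over all tested genes, 6.31% called higher and 7.29% lower. Of 9 macrophage markers 7 were lower, with sums of 528 to 834 CPM in Restricted and 806 to 1110 CPM in Control libraries. Of 7 markers of progenitors and fibroblasts 3 were lower, with sums of 2390 to 3720 CPM in Restricted and 3320 to 4300 CPM in Control libraries. The 6 endothelial and 5 mesothelial markers held no call. Of 11 muscle markers 8 were tested and none was called, with sums of 35.2 to 3400 CPM in Restricted and 17.6 to 2110 CPM in Control libraries. Of 13 germ cell markers 2 were tested and 1 was higher, with sums of 5.85 to 138 CPM in Restricted and 5.8 to 48.1 CPM in Control libraries. Of 11 markers of epididymis and vas deferens 1 was tested and not called, with sums of 0.363 to 4.88 CPM in Restricted and 0.16 to 360 CPM in Control libraries. With mean log2 levels of these last 2 lists in the model in place of the label, none of the 10 genes was called. In that fit 1119 of 15986 tested genes were called, against 2173 with the label. No marker of any list was at 0 in all libraries. In bulk tissue, fewer cells of a type and less RNA per cell cannot be told apart. The part of these cells in the results was not tested.

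Other genes of the same pathways, also chosen with earlier results of these data known, were taken as 10 lists of 111 genes beside the 10 described, of which 101 were tested. Of these 12 were higher and 3 lower in Restricted libraries (14.9% called, against 13.6% of all tested genes), with a median log2 fold change of 0.093. Over all tested genes 6.31% were higher and 7.29% lower. The total was thus near that of all tested genes, while the split leaned to higher. As the lists were chosen with results known, this is a description. The same 2 shares stand beside the counts of single lists below. With library totals in place of TMM factors 5 were higher and 7 lower (11.9% called, against 14.9% of all genes). On that scale 411 of all 15986 tested genes were higher and 1972 lower. Without muscle-bearing libraries 6 of 102 were higher and 1 lower (6.86%, against 5.59%), and with the integrity number 2 of 101 were higher and 1 lower (2.97%, against 2.42%). Over all tested genes, 397 of 16591 were higher and 530 lower without muscle-bearing libraries. With the integrity number 203 of 16173 were higher and 189 lower.

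The transferase list had 21 tested genes, 6 of them higher and none lower, where 6.31% of all tested genes were higher and 7.29% lower. The 6 were Gsta4 and Gstm1, and beside them the mu-class Gstm4 and Gstm6, the omega-class Gsto1 and the microsomal Mgst2. Gstm4 averaged 43.7 ± 3.10 CPM in Restricted and 34.6 ± 5.28 CPM in Control libraries (log2 fold change 0.35, adjusted p = 0.00713, edgeR), and its call was kept whichever library was left out. Mgst2 averaged 29.5 ± 7.46 CPM in Restricted and 21.4 ± 2.30 CPM in Control libraries (0.45, adjusted p = 0.0258), a call lost without Restricted 1 or Control 6. Gstm6 had a log2 fold change by diet of 0.52 (adjusted p = 0.0091) and one by label, Yes over No, of 0.94 (adjusted p = 1.25e-05), so its level followed both. Gsto1 (0.19, adjusted p = 0.0485) kept its call in 4 of the 20 fits that left out 1 library and was at 0.12 (adjusted p = 0.18) without Restricted 1. The count of transferases called higher was 0 of 21 with the integrity number in the model, 0 of 22 among libraries marked Yes and 0 of 22 among those marked No. Without the muscle-bearing libraries it was 3 of 22, Gstm1, Gstm4 and Gstm6. Calls were few over the whole table in these fits too, so the counts of 0 were near its shares. Over all tested genes 203 of 16173 were higher with the integrity number and 397 of 16591 without the muscle-bearing libraries. Among libraries marked Yes 69 of 17069 were higher, and among those marked No 130 of 16584.

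Of 5 tested peroxidases 2 were higher, Gpx4 and Gpx8, a peroxidase of the endoplasmic reticulum. Over all tested genes 6.31% were higher, the share to set beside this small list and the selenoprotein list. Gpx8 averaged 31.0 ± 4.55 CPM in Restricted and 22.8 ± 4.64 CPM in Control libraries (SD, n = 10 each; log2 fold change 0.41, adjusted p = 0.0286, edgeR), and lost its call without Restricted 1 (adjusted p = 0.0605), Control 6 or Control 7. Gpx7 (0.17, adjusted p = 0.089) and Gpx1, the abundant cytosolic form (0.09, adjusted p = 0.653; 0.21, adjusted p = 0.0987, without Restricted 1), were not called. In the selenoprotein list, 2 of 11 genes were higher: Trnau1ap, a partner of the selenocysteine tRNA (0.27, adjusted p = 0.0149), and the small selenoprotein Selenow (0.24, adjusted p = 0.0195); the first lost its call without Restricted 3 and the second without Control 6. Sephs2, which makes the selenium donor (0.23, adjusted p = 0.0724), and Selenof (0.13, adjusted p = 0.0781) were not.

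The list of glutathione synthesis, recycling and breakdown had 14 tested genes, none higher and 1 lower. That gene was Ggt5, a gamma-glutamyl transferase that cleaves glutathione conjugates such as leukotriene C4 outside the cell: 40.5 ± 4.59 CPM in Restricted and 50.8 ± 4.5 CPM in Control libraries (SD, n = 10 each; log2 fold change −0.33, adjusted p = 0.00465, edgeR). The call was kept whichever library was left out and among libraries marked Yes (−0.36, adjusted p = 0.0381), but not among those marked No (−0.29, adjusted p = 0.223). Gclm, the modifier subunit that partners Gclc, had 0.21 (adjusted p = 0.0638), and Chac1, which degrades glutathione inside the cell, 0.44 (adjusted p = 0.23). Ggt1, with a log2 fold change by diet of 0.63 (adjusted p = 0.444), was far higher in libraries marked Yes (5.69 over No, adjusted p = 6.64e-08); its fold change by diet was 0.97 (adjusted p = 0.239) without Restricted 1.

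Peroxide is also removed by the peroxiredoxin and thioredoxin chain, and in that list 4 of 17 genes were higher and 1 lower. The shares of all tested genes were 6.31% higher and 7.29% lower. Prdx2, a cytosolic peroxiredoxin, averaged 187.7 ± 20.7 CPM in Restricted and 154.7 ± 7.38 CPM in Control libraries (SD, n = 10 each; log2 fold change 0.30, adjusted p = 0.00202, edgeR). In 8 of 10 Restricted libraries Prdx2 lay above every Control library, and the call was kept whichever library was left out. Prdx5 (0.22, adjusted p = 0.0203), Glrx5, a mitochondrial glutaredoxin of iron-sulfur cluster assembly (0.25, adjusted p = 0.0217), and thioredoxin itself, Txn1 (0.23, adjusted p = 0.0294), were higher too. Each of these 3 calls rested in part on single libraries: Prdx5 lost its call without Restricted 1, Glrx5 without Restricted 1 or 2, and Txn1 without Control 6 or 7. Txnip, which binds and inhibits thioredoxin, was lower, with 981 ± 154 CPM in Restricted and 1213 ± 171 CPM in Control libraries (−0.35, adjusted p = 0.0258), a call lost without Restricted 1 or 2 or Control 3 or 7. With the 6 muscle-bearing libraries left out none of the 17 was called, Prdx2 with 0.24 (adjusted p = 0.0846), and 5.59% of all tested genes were called there.

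None of the 5 superoxide dismutase and catalase genes passed the test, with Sod3, the extracellular form, at 0.18 (adjusted p = 0.0973), Sod1, the cytosolic form, at 0.18 (adjusted p = 0.1), its copper chaperone Ccs at 0.16 (adjusted p = 0.115) and catalase, Cat, at 0.08 (adjusted p = 0.518; 0.0063, adjusted p = 0.969, without Restricted 1). Of the 12 NRF2 targets outside the glutathione lists 1 was higher, Cbr1, a carbonyl reductase, with 73.2 ± 8.42 CPM in Restricted and 61.1 ± 3.68 CPM in Control libraries (0.30, adjusted p = 0.00373, edgeR), a call kept whichever library was left out. Hmox1, haem oxygenase (−0.18, adjusted p = 0.0577), Abcc4, an export pump (−0.18, adjusted p = 0.107), and Ephx1, an epoxide hydrolase (0.15, adjusted p = 0.144), were not called, and the median of the list was −0.045. Of the 8 NRF2 regulators none was called; Nfe2l2 had 0.10 (adjusted p = 0.233), its cousin Nfe2l1 0.07 (adjusted p = 0.465; 0.02, adjusted p = 0.833, without Restricted 1), the small Maf partner Maff 0.36 (adjusted p = 0.0613; called higher without Restricted 1, 0.43, adjusted p = 0.0325) and the repressor Bach1 −0.34 (adjusted p = 0.0806). With library totals in place of TMM factors 3 of the 12 NRF2 targets were called lower, Nqo1, Hmox1 (−0.27, adjusted p = 0.0113) and Abcc4 (−0.28, adjusted p = 0.0129). Cbr1 stayed higher, and Bach1 was called lower (−0.41, adjusted p = 0.0487). That scale moved the whole table down, with 1972 of 15986 tested genes lower and 411 higher.

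NADPH keeps glutathione and thioredoxin reduced, and none of its 8 tested supply genes was called. Me1, malic enzyme, had 676.6 ± 583 CPM in Restricted and 453.6 ± 107 CPM in Control libraries (log2 fold change 0.76, adjusted p = 0.0937, edgeR), and 0.05 (adjusted p = 0.924) without Restricted 1. G6pdx, glucose-6-phosphate dehydrogenase, gave 0.31 (adjusted p = 0.189) and 0.01 (adjusted p = 0.962) in the same pair of fits, while the NAD kinases Nadk2 and Nadk had 0.12 and 0.11 (adjusted p = 0.16 and 0.232). Of 10 tested aldehyde-clearing enzymes 1 was lower, Aldh7a1, with 107 ± 5.37 CPM in Restricted and 118 ± 2.77 CPM in Control libraries (−0.14, adjusted p = 0.0208), a call lost without Restricted 1. The aldo-keto reductases Akr1b8 (0.17, adjusted p = 0.254), Akr7a5 (0.13, adjusted p = 0.38) and Akr1b3 (0.11, adjusted p = 0.401) were not called. Without Restricted 1, Akr1b8 was at 0.06 (adjusted p = 0.689) and Akr1b3 at −0.0031 (adjusted p = 0.984).

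**Figure D3:**
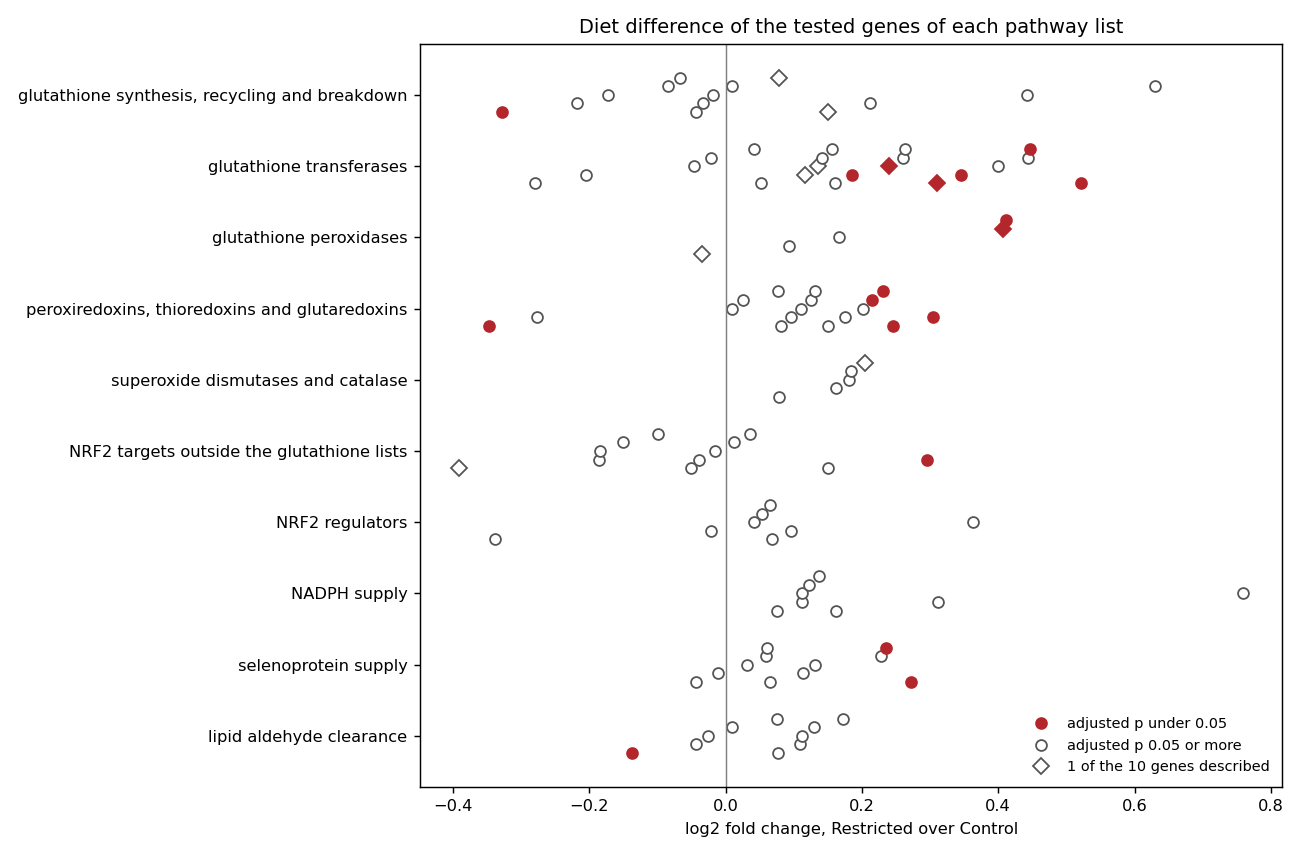
Log2 fold change by diet, Restricted over Control (horizontal axis), of the tested genes in each of the 10 pathway lists (rows). Filled points passed the test at an adjusted p of 0.05, open points did not, and diamonds are the 10 genes described; in the transferase row 6 of 21 genes are filled and all of these lie right of 0.

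Several of the 10 genes moved together between libraries of the same diet and label. These correlations use log2 CPM over 20 libraries after the mean of each diet and label group was taken out, and are descriptions without a test, since both genes of a pair share the depth, RNA quality and cell makeup of each library. Of 45 pairs, 8 had a Pearson r above 0.7, and 3 of these stayed above it without the 2 libraries farthest from the median. Gpx4 and Gsta4 had r = 0.879 (Spearman rho 0.847), and 0.821 without those 2 libraries. Gpx4 and Gsta3 had r = 0.864 (rho 0.859, 0.799 without 2 libraries), and Gstm2 and Sod2 r = 0.808 (rho 0.659, 0.699 without 2 libraries). Gpx4, Gsta4, Gsta3, Gstm2 and Sod2 had r of 0.686 to 0.879 in each pair over all 20 libraries, 0.622 to 0.869 without Restricted 1, and 0.443 (Gpx4 and Sod2) to 0.821 without the 2 farthest libraries.

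Gstm1 had lower r to these genes, −0.299 to 0.134 over 20 libraries and 0.00426 to 0.347 without Restricted 1. Its highest r was to Gpx3 (r = 0.719, rho 0.57, 0.718 without 2 libraries, 0.583 without Restricted 1). Gpx3 ran against Sod2 (r = −0.621) and Gsta3 (r = −0.509), but the first was −0.423 and the second −0.199 without Restricted 1. The 2 neighbouring mu-class genes did not vary together: Gstm1 and Gstm2 had r = −0.0863, and 0.229 without Restricted 1. The highest r to any of the others was 0.297 for Gclc and 0.225 for Nqo1, and the 2 synthesis genes had r = −0.064.

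**Figure D4:**
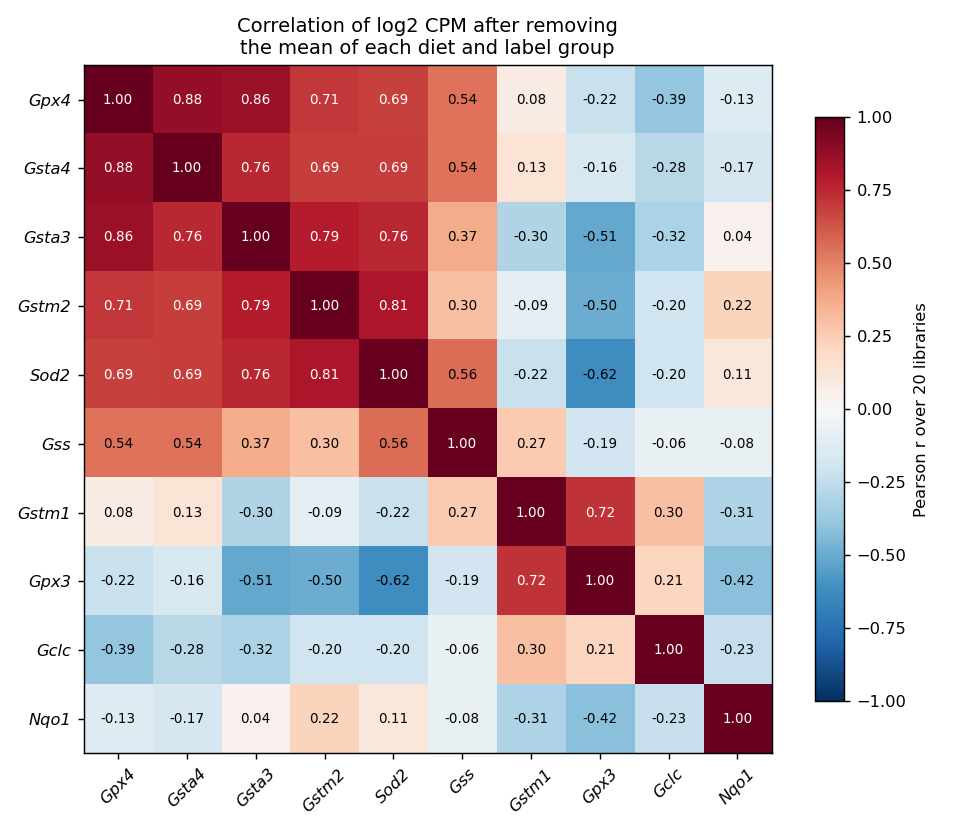
Pearson r between each pair of the 10 genes over 20 libraries, from log2 CPM less the mean of each diet and label group; the colour scale runs from −1 to 1. The upper left block of Gpx4, Gsta4, Gsta3, Gstm2 and Sod2 is red throughout, and Gstm1 pairs with Gpx3.

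Over all tested genes with a mean of at least 1 CPM, the 2 genes with the highest r to each of the 10 were taken in the same way. For Gsta4 they were Ndufs6 (r = 0.962) and Atp5j2 (r = 0.907), subunits of respiratory complex I and of ATP synthase, and for Sod2 Cdk16 (r = 0.939) and Atp5b (r = 0.935), another ATP synthase subunit. Gstm2 was nearest to Uqcc1 (r = 0.880), an assembly factor of complex III, and Ndufa10 (r = 0.879), a complex I subunit. Gsta3 was nearest to Tecr (r = 0.947), a reductase of very long chain fatty acid synthesis, and Oxnad1 (r = 0.946). Gpx4 was nearest to Tmem120b (r = 0.931) and Washc3 (r = 0.924), and Gstm1 to Tmem43 (r = 0.939) and Ces1d (r = 0.907), a carboxylesterase that cleaves triglyceride. The nearest genes of Gpx3 were Rps27 (r = 0.880) and Bcas2 (r = 0.877), of Gss Srm (r = 0.889) and Ube2d-ps (r = 0.882), of Gclc Ctps2 (r = 0.826) and Gstm6 (r = 0.792), and of Nqo1 Fbxo27 (r = 0.823) and Cdk7 (r = 0.788).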

How the data were processed

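PolyA RNA of 20 eWAT libraries was read as 52-bp paired ends, per the labels' protocols. Per the submitters' processing notes, the build was GRCm38 and the tools were STAR, Salmon and bcl2fastq 4.0.3; what each did is not stated. The authors deposited whole-number counts per gene, not scaled; the sources used here name neither the counting tool nor its strand setting. The members and lists were chosen with earlier results of these data known.

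Counts were fitted over the whole table with edgeR 4.0.16 (R 4.3.3): filterByExpr at a minimum count of 10 by diet (15986 genes, at least 99.6% of each library's counts), TMM factors, terms for contamination label and diet, two-sided quasi-likelihood tests, and Benjamini-Hochberg adjustment over all tested genes at 0.05. CPM are counts per 1000000 of the tested genes' total times the TMM factor; marker sums use plain totals. Log2 CPM have a prior count of 2. The biological coefficient of variation was 0.179 over all tested genes.

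Named are the 10 genes, up to 4 other genes with the smallest p of each pathway list (and Txn1, which completes a small count and was named after its values were seen), and the 2 nearest genes of each. Symbols were matched by identifier (55141 of 55401 genes). Promoters are from RefSeq. Alternatives were DESeq2 1.42.0, limma 3.58.1 voom with quality weights, RLE, upper-quartile and library-total scaling, other filters, other covariates and subsets, exact permutation within labels, and leaving out each library. The steps were tested on simulated data with the same spread for every gene, where 71% of 1.5-fold and 96% of 2-fold changes were recovered, with 3 false calls. Changes as small as the 1.18-fold to 1.33-fold of the called genes were not simulated, so the test does not bear on calls of that size. Tables were made with pandas 2.3.3 and numpy 2.4.6 in Python 3.11.15, and plots with matplotlib 3.10.9.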

Additional observations from a re-analysis of the deposited data

How the results depend on the processing

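Of the 10 genes 3 were called by diet in all 20 libraries. The count was 0 with germ cell and epididymis indices in place of the label, 0 with the RNA integrity number in 17 libraries, 0 among libraries marked Yes, 0 among those marked No, 1 (Gstm1) without muscle-bearing libraries, and 1 to 4 when single libraries were left out (1, Gsta4, without Control 6). In exact two-sided permutation tests within label groups (14400 arrangements, smallest possible p 6.94e-05), 6 had an unadjusted p under 0.05: Gsta4, Gstm1, Gpx4, Gss, Nqo1 and Sod2. These permutations were run for the 10 genes only, so they give no share over all genes. In the edgeR fit 4517 of 15986 tested genes had an unadjusted p under 0.05 by diet. Over all tested genes there were 2173 calls, and 1119 with those indices, 392 with the integrity number, 1445 in the same 17 libraries without it, 239 among libraries marked Yes, 400 among those marked No, 927 without muscle-bearing libraries, and 1506 to 2274 when single libraries were left out. Restricted and Control libraries with the same replicate number were not seen to be alike. Their deviations from the group means had r of −0.0964 to 0.0931, and 0 of 10 matched best by number. This cannot show whether they were paired by design, which the labels used here do not give. With the replicate block 1 of the 10 genes (Gsta4) and 1388 genes were called, with 2 of the 21 transferases (Gsta4 and Gstm4). Signs turned for Gsta3 among libraries marked Yes (−0.02237), for Gclc with library totals (−0.005632), and for Gpx3 with voom (0.05088), among libraries marked Yes (0.09515) and without muscle-bearing libraries (0.2332); leaving out single libraries gave Gpx3 −0.1875 to 0.09735. The cause was not tested. No other fold change of the 10 turned sign in any alternative run, and counts by label and by interaction were 0 throughout. Depth limits Nqo1 most, at 3330 counts in all.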

Other observations

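The transferases and gamma-glutamyl transferases held genes called by the contamination label; those named here outside the rule (Gstm5, Gstm7, Txnrd1, Gpx5) were chosen after their values were seen. Of the 101 other pathway genes tested, 5 were called by label (edgeR, adjusted over all tested genes), all higher in libraries marked Yes: Ggt1, Gstm7 (log2 fold change Yes over No 2.06, adjusted p = 2.29e-07), Gstm5 (1.30, adjusted p = 5.9e-08), Gstm6 and, weakly, Txnrd1 (0.17, adjusted p = 0.0384). Over all tested genes 5.3% were called by label, 5.04% higher, so the count of 5 of 101 was near that share. By diet, Gstm7 and Gstm5 had adjusted p-values of 0.169 and 0.159. Within the mu class, Gstm1 and Gstm4 were called by diet, Gstm5 and Gstm7 by label, and Gstm6 by both; the differences between these genes were not tested.

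The summed germ cell markers overlapped between libraries marked Yes and No. Over 13 genes they came to 5.85 to 138 CPM in libraries marked Yes, with Restricted 2 highest, and 5.8 to 48.1 CPM in libraries marked No. Markers of epididymis and vas deferens reached 360 CPM in Control 1, marked Yes, and 87.9 CPM in Control 6, marked No. Gpx5, the peroxidase of the epididymis, was counted in Control 6 alone, at 5.71 CPM, and was at 0 in the other 19 libraries. Without Control 6, 1 of the 10 genes was called by diet, and 1570 of 16169 over all tested genes. Without Control 7, 2 of the 10 and 1506 of 16082 were called. The part of epididymis transcripts in these calls was not tested.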
